A study of Mus musculus with 18 samples.

Results

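Transcripts that carry a splice site absent from the reference annotation were read from the transcript annotation that the authors built from long reads of mouse bone marrow. Members were all transcripts given the status of a new transcript together with the mark NNC, which stands for a site that is not in the catalogue. They numbered 329 of the 11013 new transcripts (2.99%) and lay in 261 host genes. The other new transcripts were 2180 that join known sites in a new combination (NIC), 8444 incomplete matches of a known transcript (ISM) and 60 between genes. The cells were Lineage-negative, cKit-positive (LK) cells, which hold haematopoietic stem and progenitor cells. They came from 3 young mice of 8 weeks (mice 1, 3 and 5) and 3 aged mice of 72 weeks (mice 2, 4 and 6). Neither group carried a transgene or received a treatment by the labels. Each mouse gave 1 short-read single-cell library and long reads on 2 PacBio instruments, Sequel and Sequel II.

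An intron begins at a donor site, which usually reads GT and sometimes GC, and ends at an acceptor site, which usually reads AG. The spliceosome cuts at both and joins the flanking exons. A second GT or AG a few nucleotides (nt) away can be used in place of the first, and such paired sites are a known source of small differences between isoforms. A shift within a coding exon keeps the reading frame only where it is a multiple of 3 nt. Since the annotation pools all mice and gives no read count per transcript, the structures are described without a test, and levels are those of the host genes.

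Among small shifts of a site, donor pairs 4 nt apart were the most frequent. These windows show 5 of them, with the annotated donor as the first capitals and the new donor as the second. Positions are on GRCm38 and bases were read from Gencode M21 transcripts that cover the site. Pabpc1 was named for its read count, and the other 4 were chosen after their sequences were seen.
Pabpc1, chr15:36600581-36600602, minus strand: cagtgcaaaaGTaaGTgtgcac
Ipo5, chr14:120926314-120926335, plus strand: gagtctgaagGCaaGTgaactc
Kdm5b, chr1:134588035-134588056, plus strand: gctaaataagGCaaGTgctggg
Psmd2, chr16:20659771-20659792, plus strand: gcctatgcagGTctGTgcctta
Cct8, chr16:87486224-87486245, minus strand: tctcacaaggGTcaGTatttgc
In all 5 the new site begins 4 nt further into the intron, so that the transcript keeps the annotated donor bases in its exon. In Ipo5 and Kdm5b the annotated donor was GC and the new one GT.

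At acceptors the usual new site lay 3 nt downstream, so that the first 3 nt of the annotated exon were left out. The first capitals are the annotated AG and the second the new AG. Coro1a was chosen after its sequence was seen.
Dcaf4, chr12:83537703-83537726, plus strand: tttctcttAGcAGgtacagaccag
Coro1a, chr7:126701083-126701106, minus strand: gtctctacAGaAGcacctggagga
Atp5b, chr10:128086028-128086051, plus strand: tgttttacAGgtAGcgttggtata
Ddx39b, chr17:35244126-35244149, plus strand: ctcctcctAGtccAGcatgagtgc
The pairs were 3 nt apart in Dcaf4 (a substrate receptor of a ubiquitin ligase) and Coro1a (an actin-binding protein), 4 nt in Atp5b (a subunit of mitochondrial ATP synthase) and 5 nt in Ddx39b (an RNA helicase of splicing and export).

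By structure, 151 of the 329 members (140 hosts) had as their largest difference a site within 10 nt of an annotated one, and 58 a larger shift within the gene. A further 63 members (39 hosts) were spliced to an exon beyond the annotated end of the gene, 12 began with a new first exon, 8 held a new internal exon, 6 reached in front of the gene and 4 ended in a new last exon inside it. In 10 members the sites were those of a gene on the opposite strand, in 7 those of another gene on the same strand, and 10 lay on alternate scaffolds. Members had a median of 8 exons, against 10 in NIC and 8 in ISM transcripts.

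**Figure D1:**
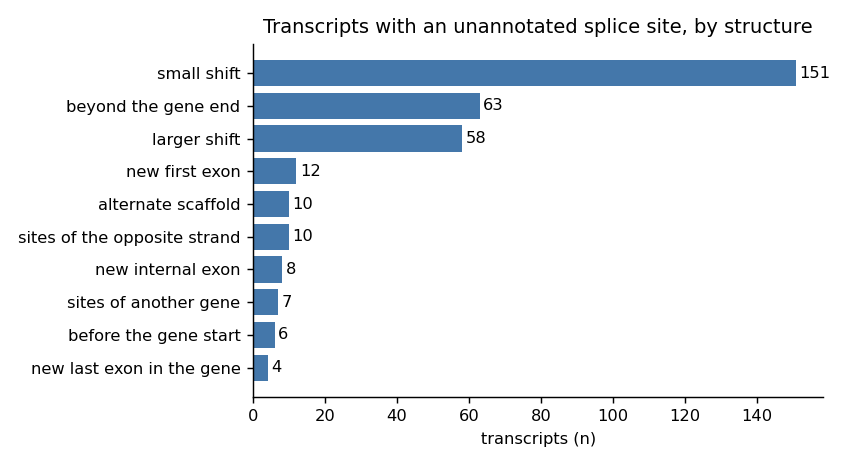
Number of transcripts with an unannotated splice site (x axis) in each structural category (y axis). Small shifts within 10 nt make up 151 of the 329 transcripts and exons beyond the gene end 63.

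The 329 members held 514 distinct introns with a new end, made of 441 new donors and 365 new acceptors. These totals include 74 introns on alternate scaffolds, where both ends of each counted as new and no bases could be read. Their ends cannot be told apart from sites that had no reference transcript to be compared with. Of the 514 introns, 163 lay within 10 nt of an annotated site. In 106 the donor alone was shifted, in 29 the acceptor alone and in 28 both ends. Donors moved 4 nt into the intron in 60 of the 106 (55 hosts), while 10 moved 3 nt, 7 moved 2 nt and 9 moved 1 nt into the exon. GT was read at 10 of 10, 5 of 7 and 0 of 3 readable sites of these. None moved 3 nt into the intron. Where the bases could be read, the donor 4 nt downstream was GT in 19 of 20. Among readable annotated donors that themselves read GT, 13769 of 38621 (35.7%) had GT at the same offset. The 20 also hold many sites beside an annotated GC donor, so the 2 sets are not alike. These lay in Ipo5, Kdm5b, Ankzf1, Ap3d1, Pebp1, Slc25a3, Tpst2 and Washc1, and at 1 of the sites of Rbm7.

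Among the 29 acceptor shifts, 14 lay 3 nt and 7 lay 4 nt inside the annotated exon. AG was read at all 14 and all 7. Among readable annotated acceptors that themselves read AG, the shares with AG at those offsets were 6.65% and 5.95%. For donors and acceptors alike, the part of the read alignment in the bases at the new sites was not tested. The 2 kinds of end differed in phase. Of 92 shifted donors at the end of a coding segment, 80 moved by a number that is not a multiple of 3, and of 23 such acceptors 9 did.

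**Figure D2:**
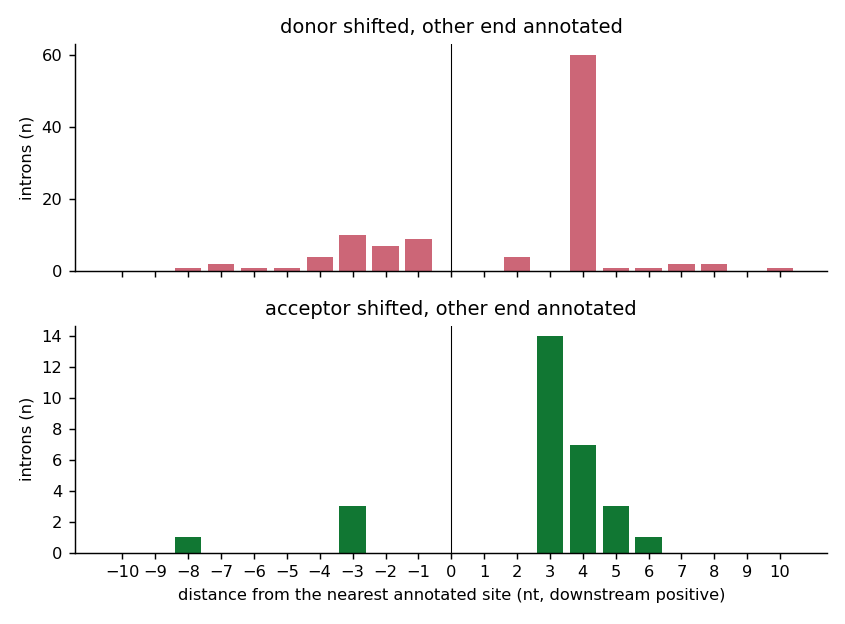
Introns (y axis, number) by distance in nt of the new donor (top) or acceptor (bottom) from the nearest annotated site, downstream positive (x axis). Of the donors 60 stand at 4 nt, and of the acceptors 14 stand at 3 nt and 7 at 4 nt.

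Both ends were displaced in 28 introns, each beside an annotated junction. In 17 of them the net change in spliced length was at most 1 nt, and 11 had their donor 4 nt downstream. Among the 7 with both ends readable, 4 had GT and AG, and all 4 were of the kind with the donor 4 nt downstream, as in Hnrnpab (an RNA-binding protein), whose donor moved 4 nt and whose acceptor moved 5 nt. The intron of H3f3a, which encodes a variant of histone H3, moved by 1 nt at both ends. It gives the same spliced sequence as the annotated one.

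Of the 59 splicing factors listed, 6 were host genes. Hosts made up 252 of the 9244 genes tested in long reads (2.73%). Tra2b, an activator of exon inclusion, had an acceptor 3 nt downstream (donor 22248436, acceptor 22247260 on chromosome 16), with AG at the new site. Sf3b2, a subunit of the U2 complex that recognises the branch point, had a donor 4 nt downstream. Another subunit, Sf3a2, had a donor 54 nt upstream that read GT. A pair of acceptors of Ptbp1, a repressor of exon inclusion, lay 41 and 33 nt upstream of the annotated one, and both read AG. Srsf3, a serine- and arginine-rich splicing factor, had a GT donor 35 nt downstream and a further transcript that ran past the gene. None of the 28 genes on the list of chromatin regulators was a host, but the list is short, and chromatin genes outside it such as Kdm5b, Kdm6b, Rbbp4 and Suds3, named after the hosts were seen, were hosts.

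Among haematopoietic transcription factors, 2 of 49 were hosts. Lmo2, the bridging protein of a transcription complex of stem cells, had a new internal exon of 65 nt (chr2:103969238-103969302, plus strand). It followed an intron of 11154 nt and preceded one of 1190 nt, and the exon after it was coding. Nfe2, a factor of megakaryocyte and erythroid genes, had 3 members. A donor 1 nt and a donor 11 nt upstream of the annotated one were joined to the same annotated acceptor, and the second of these read GT. In the remaining one the donor was annotated and the acceptor was displaced by -2056 nt, that is upstream. Jak1, a kinase of cytokine receptors, was the 1 host among 32 genes of cytokine signalling, with a donor 4 nt downstream.

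Granule proteins gave 2 hosts of 21 listed. Elane, neutrophil elastase, had a GT donor 3 nt upstream. Prss34, a mast cell and basophil protease, had 2 members. One used a GT donor 33 nt upstream. The other lost 112 nt from within a coding segment (chr17:25299790-25299901, plus strand), which is not a multiple of 3, and the ends of that intron are shown since they were read within an annotated exon, with the 2 intron bases at each end in capitals.
Prss34 donor: gggtccagGTgggtgt
Prss34 acceptor: gttcctAGaacctttg
The haem and iron list gave 1 host of 17, Car1, an erythroid carbonic anhydrase.

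New internal exons within the host gene numbered 10, in 7 hosts, and were 33 to 213 nt long with a median of 96 nt. Of these, 4 were multiples of 3. Car1 had 2 that share a donor (chr3:14807530-14807657 and chr3:14807530-14807742, minus strand), of 128 and 213 nt, followed by an intron of 29121 nt and then a coding exon. The 70-nt exon of Ciao2a, a factor of cytosolic iron and sulfur cluster assembly, was the only one between 2 coding exons (chr9:66133653-66133722, plus strand). The class I histocompatibility genes H2-Q4 and H2-Q6 each had an exon of 33 nt after their coding exons, with upstream introns of 178 and 177 nt. H2-Q4 had a further exon of 122 nt. These genes have near-identical copies, so the reads behind both could be split between them. Ubox5 (a ubiquitin ligase) had an exon of 147 nt, and the long non-coding RNA A430073D23Rik had exons of 61 and 127 nt.

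Members whose main difference was a new first exon numbered 12, in 7 hosts. In Col5a1, a fibrillar collagen, one of 150 nt (chr2:28032102-28032251, plus strand) was spliced to an annotated acceptor. Dis3l2, a cytoplasmic exonuclease, had 4 members that began at the same base with first exons of 29, 36, 49 and 58 nt, and their acceptors lay within 28 nt of each other. These 4 used no annotated site at either end of the intron.

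Introns that lay whole inside an exon of some reference transcript of the host numbered 22 and were 75 to 3652 nt long. GT and AG were read at 15 of them. They included H2-Q7 (509 and 3137 nt), Srsf3 (2547 nt) and Xbp1, a transcription factor of the unfolded protein response (367 nt, chosen after its values were seen). In Eef2, a translation elongation factor, 75 nt were removed from a coding segment, with CA at the donor. The intron of 134 nt in Ybx1, a cold shock RNA-binding protein, lay outside the coding sequence and read AG at the donor and TC at the acceptor.

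The 63 members that ran beyond the gene end formed a separate kind. Their last exons were 7 to 429 nt long with a median of 31 nt, and 51 were at most 50 nt, whereas the last exons of the 1391 reference transcripts of host genes with 2 or more exons had a median of 304 nt. Introns in front of them had a median of 3814 nt. In 42 of the 63 the donor lay within 10 nt of an annotated 3′ end of the gene. Of the 32 distinct donors that could be read, 8 were GT.

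Of the 7 hosts with 3 or more members, 5 had such transcripts. Rplp0, a protein of the ribosomal stalk, had 10 members, of which 9 ran beyond the gene. Their donors lay within 21 nt of each other, 212 to 233 nt in front of the annotated end, and none of them read GT. All 5 members of Rpl8 (a ribosomal protein) shared a donor 6 nt past the annotated end, with acceptors 885 to 2224 nt beyond it. Ubb (polyubiquitin) had 5 and Ptma (prothymosin) and Eef2 had 3 each. Both Tuba1b (a tubulin) members left the gene from a GT donor 2 nt before its end. Sequence at the start of the last exon could be read for 3 of 59 distinct exons. In Fkbp3, chosen after its bases were seen, 18 of the first 20 bases were A, whereas 2 overlapping windows of Rplp0 had 0 of 7 and 1 of 10. The acceptor of Fkbp3 is shown with the last 2 intron bases in capitals.
Fkbp3 acceptor: atgcaaAAaaaaaaaa

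**Figure D3:**
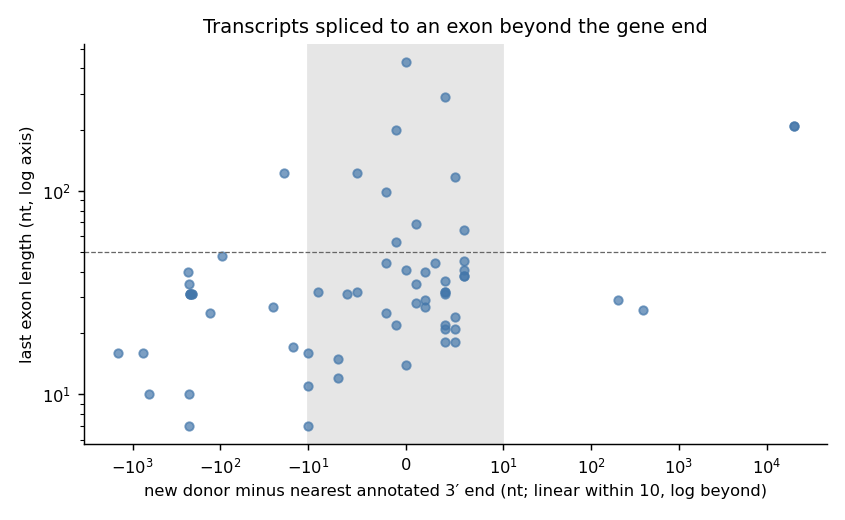
Length of the last exon in nt (y axis, log) against the position of the new donor relative to the nearest annotated 3′ end in nt (x axis, linear within 10 nt and log beyond) for the 63 transcripts spliced beyond the gene end. The grey band marks 10 nt to either side and holds 42 of them, and the dashed line marks 50 nt.

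In 17 members at least 1 intron was that of another gene. The 48 introns taken from a gene on the opposite strand read CT at 10 of 10 readable donors and AC at 16 of 16 readable acceptors, the reverse complement of AG and GT. The 50 introns taken from a gene on the same strand read GT at 14 of 14 and AG at 15 of 15. Both patterns follow from how these introns were chosen, since their 2 ends had to be annotated sites of genes on that strand. Further new introns of these members did not all follow the 2 patterns where bases were known. Those that differed included GA at the donor in Ddx46, CT at the donor in Gcn1 and Gm30211, and TC at the acceptor in Hnrnpul1. An intron of 1957 nt in a same-strand member of Gm20388 did read GT and AG. In the opposite-strand member of Pde6d, the acceptor of a further intron read AC. The member of Patl2 had 1 of its 2 introns in common with B2m, the light chain of class I histocompatibility molecules, which is read from the other strand. Another, assigned to Dapk3, a protein kinase, had 13 of its 14 introns from Eef2. The member of Gcn1, a sensor of stalled ribosomes, had 6 of 7 from Rplp0, and that of Meiob, a meiotic protein, 5 of 6 from Rps2. These genes other than hosts named above were chosen after their values were seen.

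Before levels are given, the long-read runs were compared with the short reads of each mouse over 3451 genes. Every Sequel run was most similar to the short reads of its own mouse (6 of 6), but of the Sequel II runs only those labelled mouse 1 and mouse 2 were. The Sequel II runs labelled mice 3, 4, 5 and 6 were closest to mice 6, 5, 4 and 3, in both the short reads and the Sequel runs, and those pairs cross the ages. Long-read values by mouse are therefore given from Sequel alone, and the comparison of ages with and without Sequel II. Reads on genes numbered 274522 to 358453 a run on Sequel and 962174 to 1833762 on Sequel II, with 47.4% to 52.4% of reads not counted on any gene. Short reads gave 3628043 to 17585424 UMIs and 681 to 1919 cells a mouse. Of 8394 barcodes 42 occurred in 2 or more libraries, and doublets were not removed.

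Host genes took 10.0% ± 0.71 (SD, n = 3) of long reads in young and 10.6% ± 1.23 (SD, n = 3) in aged mice (2-sided exact permutation test, p = 0.6, where 0.1 is the smallest p possible). With Sequel alone the shares were 10.2% ± 0.234 and 10.6% ± 1.57 (p = 0.8 by the same exact test). Mouse 2 had the highest share on both instruments. The hosts with most long reads were Pabpc1, the cytoplasmic poly(A)-binding protein, with 42741, Rpl8 with 42378, Ubb with 36576, Tubb5 (a tubulin) with 32642 and Gm30211, annotated as a long non-coding RNA at the immunoglobulin kappa genes, with 32208. All 4 exons of the Gm30211 member overlapped immunoglobulin genes on the same strand, 2 of them Igkv3-2 and the others Igkj1 and Igkc, so that its count cannot be told apart from reads of a kappa light chain. They were followed by Hnrnpab, Atp5b, Macroh2a1 (a histone variant), Ybx1 and Tuba1b, with 22332 to 25680. Apart from Gm30211, these genes encode proteins found in most cell types.

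For 248 hosts both read sets gave a level. CPM (counts scaled to the library total) are not scaled by length here, and a long read and a UMI do not count alike, so each host is compared with the rest of the hosts by the ratio of the 2 sets. Its median was 2.14. In 10 hosts the ratio was above 10, and 4 of these were among the 13 with both levels whose members use another gene's introns. Patl2 had 15563 long reads and 0.236 short-read CPM, while B2m had 0 long reads and 2585 short-read CPM. Gm30211 had a mean of 2702 long-read and 2.12 short-read CPM. Nfix, a transcription factor, had 588 long reads while Lyl1, a transcription factor read from the opposite strand, had 0. In other such pairs the partner had the larger count, as Tgfb1 with 5389 beside Hnrnpul1 with 2332, and Ptma with 2589 beside Pde6d with 768. The ratio was under 0.1 in 5 hosts, Rps4x, Gpx1, Ptma, Tpt1 and Rps2, all with members that reached past the gene end. Rps2, for example, had 198 long-read and 5548 short-read CPM. Such members occurred in 39 hosts in all, and others of these had higher ratios. The ratio was 1.01 in Rpl8, 1.85 in Tuba1b and 2.98 in Ubb. The part of the counting across overlapping genes in these ratios was not tested.

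**Figure D4:**
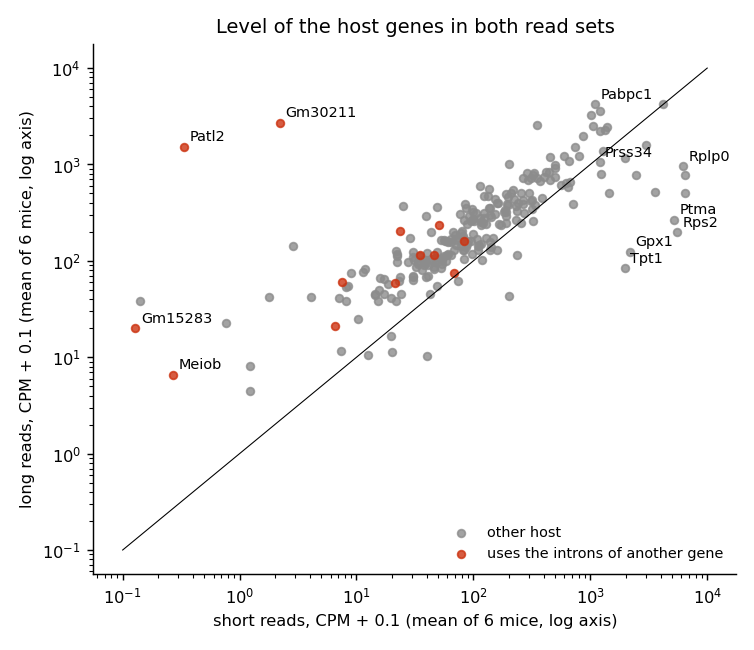
Mean level of 248 host genes over 6 mice in short reads (x axis) and long reads (y axis), both as CPM + 0.1 on log axes, with the line of equal values. Hosts whose members use the introns of another gene are red. Patl2 and Gm30211 stand far above the line and Rps2, Ptma, Gpx1 and Tpt1 below it.

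Lineage of the host genes was read from short reads of 10 cell classes, with host genes left out of the clustering and of the naming of classes. A host counted as class-biased where its highest class reached 10 CPM and 2 times the next class, with the lowest mouse of that class above the highest mouse of any other. Of 236 hosts 5 were class-biased (2.12%), against 202 of 9285 genes in all (2.18%), a share near the background. Among genes not used for clustering it was 17 of 7378 (0.23%), but these were by selection the less variable ones. Without mouse 5 the hosts called were 10 (4.2%, against 3.77% of all genes), without mouse 6 they were 9 (3.78%, against 3.74%) and without mouse 3 they were 8 (3.36%, against 3.84%). Of the 5, 4 were highest in erythroid cells, as were 80 of the 202 called over all genes. Erythroid cells were the highest class for 70 of the 236 hosts (29.7%) and for 19.8% of all genes. HSCs were so for 27 hosts (11.4%) and 26% of genes. The 2 sets differ in level, since 196 of the 236 hosts but 3762 of the 9285 genes reached 50 CPM in their highest class. HSC sums held only 44193 UMIs in mouse 1 and 43556 in mouse 5, so genes near 10 CPM rest there on few UMIs.

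Car1 reached 2844 CPM in erythroid cells (mice from 2272 to 3244), and the next class, an unnamed cluster led by Apoe and Fos, had 1321. C1qtnf12, a secreted protein of the C1q and TNF family, had 827 CPM in erythroid cells (mice from 510.2 to 1002) and 112 in mast cells and basophils. Its member had a donor 4 nt upstream. Col5a1 had 59.8 CPM in erythroid cells (mice from 34.6 to 76.8) and 10.2 in the next class. Ifrd2, a regulator of ribosomes, had 202 CPM in erythroid cells (mice from 183 to 228) and 89.1 in cycling progenitors. In these 4 genes every mouse was above every mouse of the other classes.

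Prss34 had the strongest bias, 57.0 times the next class. Its level in mast cells and basophils was 24903 CPM in mouse 1 and 21917 in mouse 2, but 794, 1523, 5456 and 2919 in mice 3, 4, 5 and 6. Mice 1 and 2 thus stood apart at both ages. In all LK cells the short-read values were 3543, 62.3 and 860 CPM in young mice 1, 3 and 5, and 2338, 136 and 267 in aged mice 2, 4 and 6. Sequel gave 3451, 148 and 570.4 CPM in the young and 2879, 117 and 179 in the aged. The ages overlap in both. In these sums over all LK cells, fewer cells of a type and less RNA per cell cannot be told apart.

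Other named hosts did not meet the rule. Elane had 10976 CPM in granulocyte progenitors, 2.40 times the unnamed cluster led by Prg2 and Prg3 (4566), but its lowest mouse there, at 6143, was below the highest of the other cluster, at 6392. Lmo2 had 1247 CPM in HSCs and 768 in LMPP/MPP, the lymphoid-primed and multipotent progenitors, a ratio of 1.62 with overlapping mice, and Nfe2 had 196 CPM in HSCs and 191 in the Apoe and Fos cluster. H2-Q4, H2-Q6 and H2-Q7 reached 75.9, 106 and 316 CPM in HSCs. Macroh2a1 had 2507 CPM in LMPP/MPP and 291 in erythroid cells. Tra2b ranged from 211 to 277 CPM and Srsf3 from 425 to 779 over the 10 classes.

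**Figure D5:**
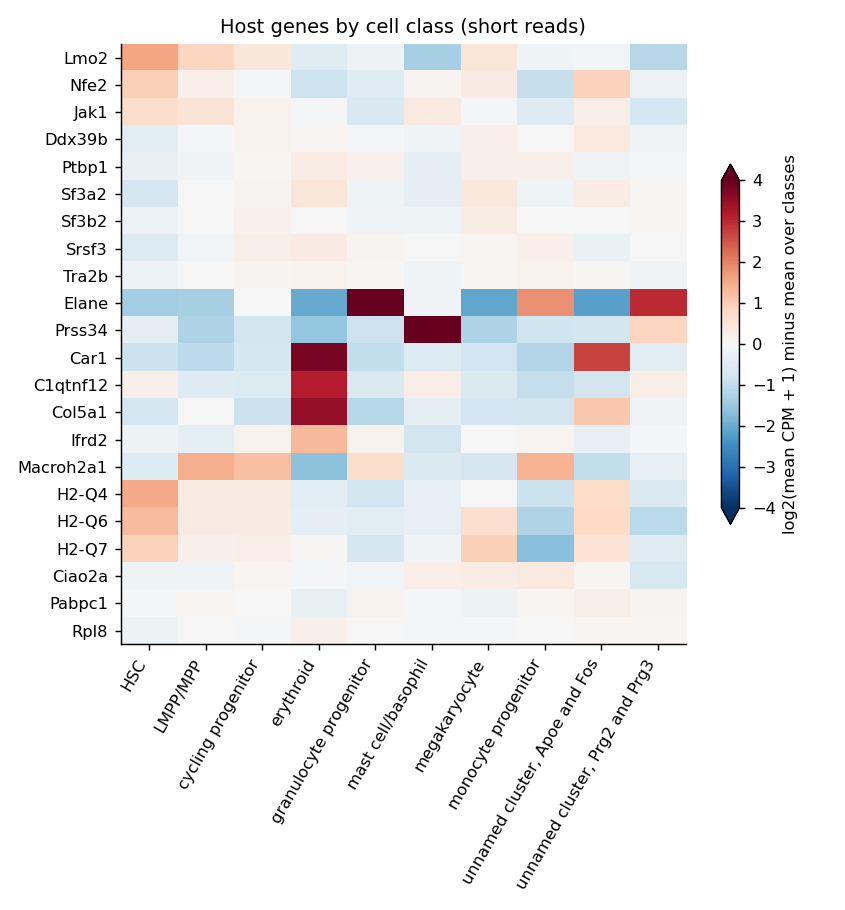
Level of named host genes (rows) in 10 cell classes (columns) of short reads, as log2(mean CPM + 1) minus the gene's mean over classes, with colours limited at 4 to either side. Prss34 stands out in mast cells and basophils, Elane in granulocyte progenitors, and Car1, C1qtnf12 and Col5a1 in erythroid cells.

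Between aged and young mice no host passed edgeR's quasi-likelihood test with Benjamini-Hochberg adjustment. In long reads 0 of 252 hosts were called and 0 of 9244 genes in all (0%), and DESeq2 called 0 hosts. An unadjusted edgeR p under 0.05 was found for 2 of the 252 hosts and 154 of the 9244 genes. With Sequel alone 0 of 237 hosts and 0 of 5250 genes were called, with 9 hosts and 161 genes at an unadjusted edgeR p under 0.05. In short reads 0 of 243 hosts and 0 of 12302 genes (0%) were called, where 3 hosts and 371 genes had an unadjusted edgeR p under 0.05. DESeq2 likewise gave 0 hosts and 12 genes. On simulated counts of the same size the edgeR test recovered 97.0% of 4-fold and 41.8% of 2-fold changes in both read sets. Of 1.5-fold changes it recovered 2.99% in long and 11.9% in short reads, so that differences of this size would mostly be missed. The simulation gave every gene the same spread between mice, which was not taken from these data. It held neither the separation of mice 1 and 2 nor the Sequel II runs in doubt. The shares recovered are therefore not the power of the test in these data. The median log2 difference of hosts was 0.01 in long and -0.02 in short reads, and over all genes 0.01 and 0.00.

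The hosts with the lowest p in short reads were 2 histocompatibility genes and Ciao2a. H2-Q7 had 108, 103 and 138 CPM in young mice 1, 3 and 5 and 132, 170 and 271 in aged mice 2, 4 and 6, a log2 difference of 0.65 ± 0.23 (SE, edgeR adjusted p = 1.00). Mouse 6 was the highest and mouse 2 fell among the young. Without mouse 6 the log2 difference of H2-Q7 was 0.35. H2-Q6 had 31.3, 31 and 35.0 CPM in the young and 36.5, 44.0 and 60.4 in the aged (log2 difference 0.46 ± 0.17, SE, edgeR adjusted p = 1.00). Its ages did not overlap, and without mouse 6 the difference was 0.28. Ciao2a had 271, 247 and 259 CPM in the young and 241, 203 and 198 in the aged (log2 difference -0.33 ± 0.13, SE, edgeR adjusted p = 1.00). Here too the ages did not overlap, with the aged lower. In all, 14 of the 243 hosts had ages that did not overlap in short reads (5.76%), against 6.99% of all genes tested, and 10 of them had the aged higher (4.12%, against 5.22%). In long reads of both instruments together they were 13 of 252 (5.16%, against 6.41%), with the aged higher in 8 (3.17%, against 3.87%). These shares were below those of all genes. The long-read counts hold the Sequel II runs in doubt, whose closest mice cross the ages, and were not made with Sequel alone. None of these differences passed the adjustment.

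In long reads of both instruments together, which hold the Sequel II runs in doubt, the lowest p belonged to C1qtnf12, Col5a1 and Dcaf4. With Sequel alone C1qtnf12 and Dcaf4 were not among the 9 hosts at an unadjusted p under 0.05, and Col5a1 had too few reads to be tested. C1qtnf12 had 960.3, 480.2 and 358 CPM on Sequel in young mice 1, 3 and 5 and 343, 517 and 377 in aged mice 2, 4 and 6. Mouse 1 was far above the others. Over both instruments the log2 difference was -0.64 ± 0.26 (SE, edgeR adjusted p = 1.00), and without mouse 1 it was -0.25. The short reads of C1qtnf12 overlapped, with 190, 251 and 130 CPM in the young and 157, 239 and 215 in the aged. Col5a1 had only 109 long reads in all (log2 difference -0.98 ± 0.40, SE, edgeR adjusted p = 1.00), and -0.55 without mouse 1. Dcaf4 had 57.3, 47.4 and 52.4 CPM on Sequel in the young and 43.3, 29.1 and 44.6 in the aged (log2 difference over both instruments -0.41 ± 0.19, SE, edgeR adjusted p = 1.00).

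The Gm30211 reads came largely from mouse 2. On Sequel it had 17548 CPM there, against 965 and 86.5 in aged mice 4 and 6 and 1774, 29.6 and 179 in young mice 1, 3 and 5. Jchain, the joining chain of secreted antibodies and a host chosen after its values were seen, had 3742 CPM in mouse 2 and 56.3 to 462 in the other mice on Sequel. B cells and plasma cells numbered 93 in mouse 2, 16 in mouse 1, 20 in mouse 4 and at most 1 in mice 3, 5 and 6. The part of these cells in the reads of both genes was not tested.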

How the data were processed

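LK cells of 3 young and 3 aged mice were profiled by 10x short reads and by PacBio long reads. Members and gene lists were chosen with earlier results of these data known. The deposited values were counts of UMIs per gene and cell (Cell Ranger 3.0.2 and Seurat 3 by the submitters' processing notes, mm10, with cells of few genes or high mitochondrial share removed by the authors), counts of long reads per gene and run (minimap2 and HTSeq), and, as another kind of value, the positions in the deposited transcript annotation (TALON with Gencode M24 on GRCm38.p6), in which the authors kept new transcripts with 5 or more reads in 3 or more samples. All columns of per-sample values were used. The Sequel II runs were those whose column names mark a second run, the Sequel runs of mice 1 and 2 were those named by age alone, and the cell names' final digit was read as the mouse number.

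A site was new where no reference transcript of the host gene had it. Bases were read from Gencode M21 transcripts, which cover only exons, so most intron ends stayed unread (0 conflicting bases between transcripts). Biotypes came from the reference transcripts of the host's identifier, since 57 of the 329 rows carried a type that was not the host's. Host genes matched the short-read table by symbol in 242, by Gencode symbol in 4 and by RefSeq synonym in 2, and 13 had no match.

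Cells (8436) were clustered in Seurat 5.3.0 (anchors between mice, 2000 variable genes, 20 dimensions, resolution 0.8) without host, immunoglobulin, ribosomal protein and mitochondrial genes. Classes were named from 3 or more markers and used where 4 or more mice had 10 cells, which left out B and plasma cells and macrophages and dendritic cells. Ages were compared by edgeR 4.0.16 (quasi-likelihood test, filterByExpr, TMM) on counts summed per mouse, adjusted by Benjamini-Hochberg over all genes at 0.05, with DESeq2 1.42.0 as an alternative, and shares by an exact permutation test. The tests were checked on simulated counts with 200 changed genes and the same spread between mice for every gene. R 4.3.3 was used. Depth is unknown for single transcripts, since the annotation gives no counts.

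Named were host genes on fixed lists (transcription factors, cytokine signalling, splicing, granule proteins, haem and iron, chromatin), the 10 with most long reads, hosts of new internal exons, class-biased hosts, the 3 with the lowest p per read set between ages and hosts with 3 or more members.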

Additional observations from a re-analysis of the deposited data

How the results depend on the processing

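The count of 806 new sites became 705 with sites of any gene on the strand as the reference, by either Gencode release, and 645 without sites within 5 nt of an annotated one. Only 91 lay on introns that were both readable and had GT-AG, GC-AG or AT-AC ends. The 806 include the sites on alternate scaffolds. Of the 514 introns 100 could be read at both ends, and 67 of these had such ends. New exons fell from 224 to 94 when those overlapping an exon of any gene on either strand were left out. Without the filter on low counts, edgeR called 60 of 17221 genes in long reads, among them 2 hosts, Gm30211 and Jchain, whose higher mean in aged mice rested on mouse 2. No other alternative called a host between ages, among them the term for mice 1 and 2 and the fit without these mice, which were chosen after seeing the data. The share of long reads on hosts differed by 0.114 to 0.651 percentage points under the alternatives for instruments and immunoglobulin genes, and by -0.127 to 0.968 when 1 mouse was left out, the lowest without mouse 2. Class-biased hosts numbered 10 with no minimum ratio, 4 or 5 at other cluster resolutions or with at least 50 CPM, 5 to 10 with 1 mouse left out (10 without mouse 5, 9 without mouse 6 and 8 without mouse 3) and 9 without mice 1 and 2. The 5 class-biased hosts were among those called whichever mouse was left out. Of the 6 hosts named for the lowest p between ages, which were chosen on these data, C1qtnf12 went from -0.64 to -0.12 and Col5a1 from -0.98 to -0.35 (log2) without mice 1 and 2. No paired analysis was possible because no mouse number occurs in both ages.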
